A study of Rattus norvegicus with 6 samples.

Results

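A set of 9 transcription factor genes that give regions of the embryonic forebrain their identity were listed by symbol (*Pax6*, *Emx1*, *Emx2*, *Lhx2*, *Otx1*, *Nr2f1*, *Nr2f2*, *Gsx2* and *Dmrta2*), and their mRNA level was read in neural progenitors cultured from rat cortex. Of the 9 symbols, 8 had a row among the 17337 gene names of the RNA-seq tables, and *Emx1* was not analysed here. All 8 had exactly 1 row in each table and overlapped 0 other genes listed there. They were taken by symbol, with earlier results of these data known. *Emx1* and *Emx2* are the vertebrate relatives of the fly gene *empty spiracles*.

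The early telencephalon is divided into a dorsal part, which forms the cortex, and a ventral part, which forms the basal ganglia and most interneurons. Homeodomain and zinc finger factors mark these parts and cross-repress one another at their borders, and inside the cortex graded factors set the position of areas. *Lhx2*, a LIM homeodomain gene, and *Pax6*, a paired-domain gene, act in dorsal progenitors, *Emx2* and *Dmrta2* are strongest toward the caudal and medial cortex, and the orphan nuclear receptor gene *Nr2f1* is strongest caudally and laterally. *Nr2f2*, its close relative, is also known from the caudal ganglionic eminence and from mesenchyme, *Otx1* is a homeobox gene of forebrain and midbrain, and *Gsx2* is a homeobox gene of the lateral ganglionic eminence, on the ventral side.

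Cortices of Sprague Dawley rats at embryonic day 14 were the source of the cells. The cultures were untreated, carried no transgene that the labels name, and were kept in serum-free medium with bFGF and EGF until the second passage, so the cells are a passaged culture and not fresh tissue. There was 1 condition. Its biological replicates A and B (2 in all) gave 2 polyA-selected libraries apiece, here called A1, A2, B1 and B2. The sources used here do not say how many embryos went into a replicate. Libraries of 1 replicate were taken, by their labels, to be technical libraries that share its RNA source, and this was not tested. With 2 replicates of 1 condition no test between groups was possible, and the spread given is the SD over the replicate means (n = 2).

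The mRNA level is given as FPKM, fragments scaled to transcript length and library depth, which allows levels of genes of unequal length to be set side by side. Depth was lower in B2, where 1 FPKM corresponded to a mean read coverage of 6.83, against 22.7 to 24.4 in the other libraries. The labelled cell type was checked on 10 progenitor markers. All 10 averaged 1 FPKM or more, *Fabp7* (11841 FPKM), *Vim* (3291 FPKM) and *Sox2* (478 FPKM) being the highest, and none was listed at 0. All 4 astrocyte markers averaged above 10 FPKM. *Gfap*, the astrocyte intermediate filament gene, was above *Sox2* in its mean, at 571 FPKM, but not in every library. It was below *Sox2* in A1 (502 against 558 FPKM) and A2 (460 against 592 FPKM). In B1 the genes were close (419 against 406 FPKM), and in B2 *Gfap* was far above (904 against 356 FPKM). All 5 endothelial and all 6 microglial markers averaged below 1 FPKM. Markers of meningeal and mesenchymal cells moved with the replicate. Of these, 10 of 10 were higher in both libraries of B than in those of A, beside 28.1% of the 10481 genes averaging 1 FPKM or more. Their summed level was 649 to 667 FPKM in A and 2498 to 3301 FPKM in B. By the rule for a difference given further on, 9 of the 10 differed (8 without B2), against 4.78% of all genes tested in that direction. They were *Col1a1*, *Col1a2*, *Col3a1*, *Dcn*, *Lum*, *Twist1*, *Foxc1*, *Foxd1* and *Ptgds*, with log2 differences of A minus B from -4.77 for *Ptgds*, the one lost without B2 (-0.73), to -1.53 for *Lum*. In bulk RNA, fewer cells of a type and less RNA per cell cannot be told apart.

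All 8 genes averaged 1 FPKM or more, and 7 averaged 10 FPKM or more. Of all gene names, 60.5% reached 1 FPKM. The median of the 8 means was 37.6 FPKM, beside 16.6 FPKM over the 10481 genes at or above 1 FPKM. *Nr2f1* stood apart from the rest at 274 ± 73.9 FPKM (SD, n = 2) and made up between 49.5% and 60.0% of the summed FPKM of the 8 genes in a single library. The sum itself was 562 FPKM in A1, 544 FPKM in A2, 410.5 FPKM in B1 and 417.5 FPKM in B2.

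The order by mean was *Nr2f1*, *Lhx2*, *Nr2f2*, *Otx1*, *Pax6*, *Dmrta2*, *Emx2* and *Gsx2*. At 3 steps of this order the libraries of the neighbouring genes did not overlap. The lowest *Nr2f1* value, 207 FPKM, was above the highest *Lhx2* value, 65.2 FPKM. *Pax6* had at least 22.1 FPKM in every library and *Dmrta2* at most 14.2 FPKM. *Emx2* had at least 10.5 FPKM and *Gsx2* at most 5.38 FPKM. Elsewhere neighbours did not differ beyond their spread. *Nr2f2* and *Otx1* changed places between the replicates, as did *Dmrta2* and *Emx2*. *Lhx2* was above *Nr2f2* in 3 of 4 libraries, and their order in B was turned by B2. *Otx1* was above *Pax6* in all 4 libraries, by 1.30 times in A and 1.11 times in B, although their ranges overlapped.

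**Figure D1:**
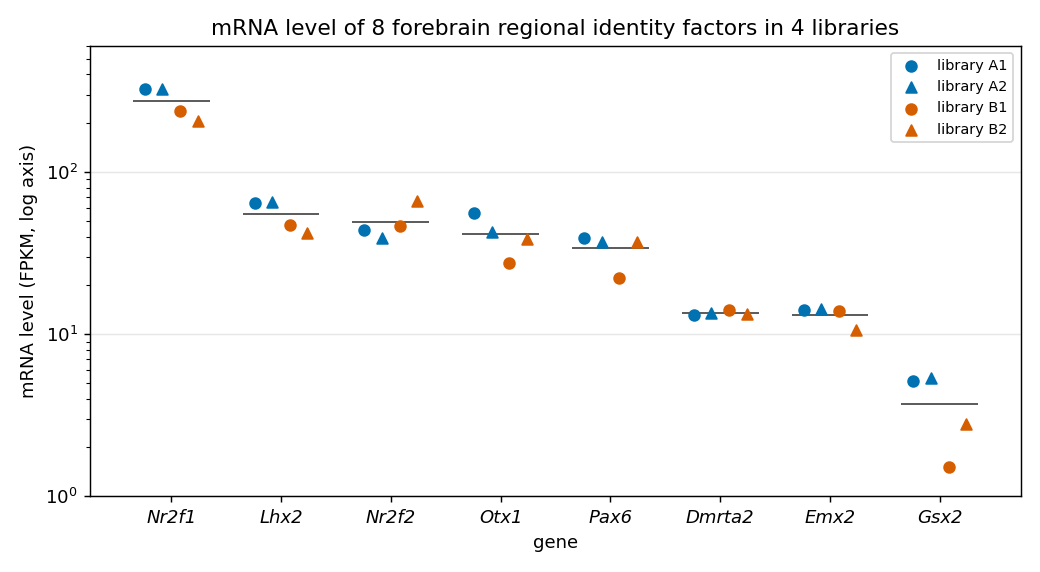
mRNA level of each gene (FPKM, logarithmic axis) in libraries A1, A2, B1 and B2, with a bar at the mean of the 2 biological replicates. *Nr2f1* lies above all other genes in every library and *Gsx2* below them, and the A and B libraries of *Dmrta2* lie together while those of *Gsx2* lie apart.

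*Nr2f1*, the nuclear receptor gene known as COUP-TFI, is a minus-strand gene of chromosome 2 (bases 5569956 to 5579894 of rn6, the build of all gene positions given here). Its level was 326 FPKM in A1, 327 FPKM in A2, 237 FPKM in B1 and 207 FPKM in B2. Both libraries of A were above both of B, by 1.47 times for the replicate means, and the libraries of A were nearly equal. By its mean *Nr2f1* ranked 324 among all gene names, above 98.1% of them. Mean read coverage of the gene was between 1413 and 7937, the deepest of the 8.

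*Nr2f2*, the related COUP-TFII gene, is a minus-strand gene of chromosome 1 (131448737 to 131454689). It had 43.9 FPKM in A1, 39.3 FPKM in A2, 46.7 FPKM in B1 and 65.9 FPKM in B2. Among the 8 genes it was the only one whose B libraries were both above its A libraries. The replicate means were 1.35 times apart, and most of this came from B2, since the log2 difference of A minus B was -0.43 with all libraries and -0.16 without B2. As TPM, the authors' other unit, the libraries of A and B overlapped. The mesenchymal markers were higher in B as well, and their part in the *Nr2f2* level was not tested.

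*Nr2f6*, the most distant member of this receptor family, was higher than *Nr2f2* in every library, at 82.7 FPKM in A1, 91.0 FPKM in A2, 105 FPKM in B1 and 121 FPKM in B2. *Nr2f1* was at 7.43 times the *Nr2f2* level in A1, 8.31 times in A2, 5.09 times in B1 and 3.14 times in B2, a mean ratio of 5.99 ± 2.66 (SD, n = 2). The ratio was therefore above 3 in each library but not of 1 size. *Nr2f6* over *Nr2f2*, in contrast, ranged only from 1.84 to 2.32 times, with A and B overlapping.

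*Lhx2*, a selector gene of the cortical primordium, is a plus-strand gene of chromosome 3 (22640545 to 22658446). Its level was 64.2 FPKM in A1, 65.2 FPKM in A2, 47.4 FPKM in B1 and 42.2 FPKM in B2, a mean of 54.8 ± 14.1 FPKM (SD, n = 2). As for *Nr2f1*, both A libraries were above both B libraries, by 1.44 times for the means. The other 6 Lhx genes with a row were all below 1 FPKM, from 0.0720 FPKM for *Lhx4* to 0.494 FPKM for *Lhx1*.

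*Pax6*, also a plus-strand gene, occupies bases 95707386 to 95728383 of chromosome 3. It had 39.3 FPKM in A1, 37.01 FPKM in A2, 22.1 FPKM in B1 and 37.3 FPKM in B2. The 2 libraries of B were further apart than the replicate means, which were 38.2 FPKM in A and 29.7 FPKM in B, so no difference between the replicates can be read for *Pax6*. Without B2 the log2 difference of A minus B went from 0.35 to 0.76. Of the other 8 Pax genes with a row only *Pax1*, a gene of the sclerotome and pharyngeal pouches, reached a mean of 1 FPKM, with 1.63 FPKM in A and 6.44 FPKM in B, higher in B as were the mesenchymal markers, whose part in it was not tested. *Pax2*, *Pax3*, *Pax5*, *Pax7* and *Pax8*, which mark midbrain, hindbrain and spinal cord, were between 0.0070 FPKM for *Pax3* and 0.0738 FPKM for *Pax8*.

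*Emx2*, a plus-strand gene of chromosome 1 (280633938 to 280640946), had 14.0 FPKM in A1, 14.3 FPKM in A2, 13.9 FPKM in B1 and 10.5 FPKM in B2. The A libraries and B1 lay between 13.9 and 14.3 FPKM and B2 was lower. *Dmrta2*, also called Dmrt5, acts with *Emx2* in the caudomedial cortex and is a plus-strand gene of chromosome 5 (129754295 to 129760042). Its 4 values were 13.0, 13.5, 14.2 and 13.4 FPKM in A1, A2, B1 and B2. This was the most even of the 8 genes, with a highest value only 1.09 times the lowest. *Dmrt3* and *Dmrta1*, its relatives in the cortical primordium, were at 0.201 FPKM and 0.0703 FPKM, and the other 3 Dmrt genes with a row, *Dmrtb1*, *Dmrt2* and *Dmrt1*, were at 0.552, 0.359 and 0.0032 FPKM.

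*Otx1* is a minus-strand gene of chromosome 14 (106861556 to 106864933). Its level was 56.1 FPKM in A1, 43.0 FPKM in A2, 27.4 FPKM in B1 and 38.7 FPKM in B2. The libraries of A were above those of B, but the closest of them, A2 and B2, were nearer to each other than either was to its own technical partner. *Otx2*, a related gene of forebrain, midbrain and choroid plexus, was lower at 23.7 FPKM in A1, 22.4 FPKM in A2 and 16.8 FPKM in B1. It was listed at 0 in B2, where no ratio can be given. In the other libraries *Otx1* was at 1.63 to 2.36 times *Otx2*. *Crx*, the retinal member of the family, had a mean of 0.0115 FPKM.

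*Gsx2*, on the same strand and chromosome (35650985 to 35652709), was the lowest of the 8. It had 5.12 FPKM in A1, 5.38 FPKM in A2, 1.51 FPKM in B1 and 2.79 FPKM in B2. Both A libraries were above both B libraries, and the replicate means, 5.25 and 2.15 FPKM, were 2.44 times apart, the largest fold among the 8. Coverage was thin in B, with a mean of 36.8 reads in B1 and 19.1 in B2. *Gsx1*, which shares the ventral progenitor domain with *Gsx2*, was far higher at 77.3 FPKM in A1, 80.7 FPKM in A2, 59.3 FPKM in B1 and 55.3 FPKM in B2. *Gsx1* was at 15.1 times the *Gsx2* level in A1, 15.0 times in A2, 39.2 times in B1 and 19.8 times in B2, so the ratio was at least 15.0 in each library.

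**Figure D2:**
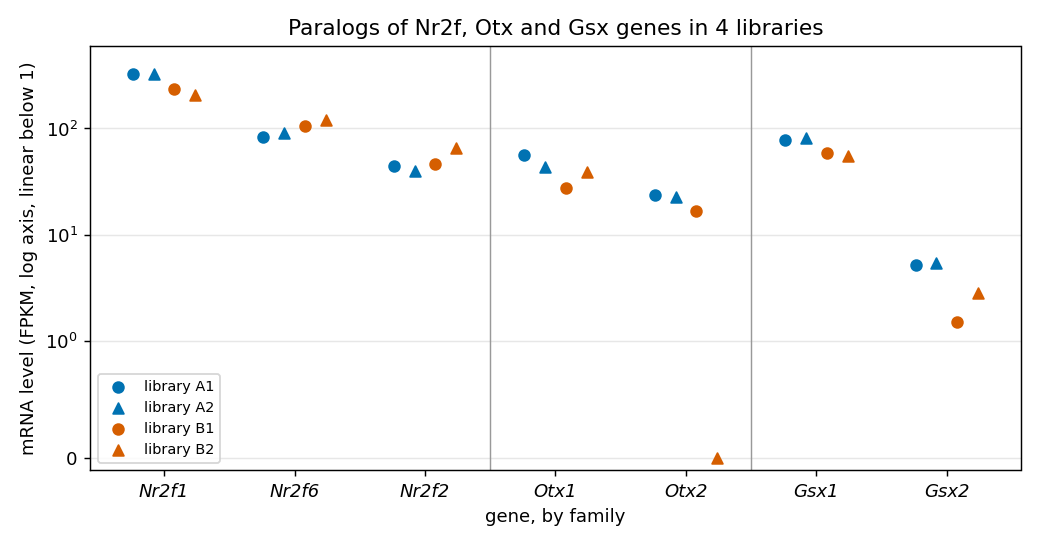
mRNA level (FPKM, axis logarithmic above 1 and linear below) of the Nr2f, Otx and Gsx genes in the 4 libraries. *Nr2f1* lies above *Nr2f6* and *Nr2f2* in every library, *Gsx1* lies at 15.0 times *Gsx2* or higher, and the point of *Otx2* at 0 is library B2.

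Promoter sequence was looked up for the 8 genes in RefSeq (build GRCr8, newer than the rn6 build of the tables), and 5 had an entry: *Nr2f1*, *Lhx2*, *Pax6*, *Dmrta2* and *Gsx2*. The 250 bases before the annotated start are shown for *Nr2f1* and *Lhx2*, the members whose level relative to *Sox2* varied least over the libraries (given further on), and for *Gsx2*, the lowest of the 8. Sequences run 5′ to 3′ on the strand of the gene. Capitals mark matches, on either strand, to 3 motifs. The GC box was searched as GGGCGG. The motif CCAAT was searched under its own name. TATAAA stood for the TATA box. The windows are chr2:9785925-9786174 on the minus strand, chr3:42535494-42535743 on the plus strand and chr14:33480321-33480570 on the minus strand of GRCr8.
Nr2f1: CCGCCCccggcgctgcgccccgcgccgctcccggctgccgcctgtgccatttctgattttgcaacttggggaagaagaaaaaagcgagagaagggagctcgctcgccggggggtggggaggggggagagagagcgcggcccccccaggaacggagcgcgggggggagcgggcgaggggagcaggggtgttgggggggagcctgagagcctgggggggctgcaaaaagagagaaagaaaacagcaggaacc
Lhx2: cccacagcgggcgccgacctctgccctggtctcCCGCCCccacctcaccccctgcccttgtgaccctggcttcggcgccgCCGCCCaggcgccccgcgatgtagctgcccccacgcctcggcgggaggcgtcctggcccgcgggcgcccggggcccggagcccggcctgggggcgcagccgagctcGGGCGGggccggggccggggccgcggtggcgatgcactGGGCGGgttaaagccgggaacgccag
Gsx2: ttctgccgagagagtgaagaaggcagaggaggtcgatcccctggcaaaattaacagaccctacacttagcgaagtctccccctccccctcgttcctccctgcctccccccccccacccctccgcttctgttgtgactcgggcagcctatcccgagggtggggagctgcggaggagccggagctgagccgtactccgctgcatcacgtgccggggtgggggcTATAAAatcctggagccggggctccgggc

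The *Lhx2* window held 4 GC boxes and the *Nr2f1* window held 1, at its far end. *Gsx2* had the one TATA box among the 5 windows, beginning 29 bases before the annotated start. *Dmrta2* had 3 CCAAT boxes, and the *Pax6* window held none of these motifs. No window held motifs of more than 1 kind, so none overlapped. Over all 33469 windows of this length, 30.5% held a GC box, 34.0% a CCAAT box and 12.9% a TATA box. The share of G and C was 80.8% for *Lhx2*, 69.2% for *Nr2f1*, 64.8% for *Gsx2*, 64.4% for *Dmrta2* and 42.0% for *Pax6*, beside a median of 51.2%. These are matches of letters, and whether a factor binds them, or whether these cells use the annotated starts, was not analysed here.

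The replicates were then compared over all 8 genes. Between A and B the libraries did not overlap for 6 of 8 genes (75.0%), beside 60.1% of the 10481 genes averaging 1 FPKM or more. Such separation was therefore common in these libraries. Of the 8 genes, 5 were higher in A (*Nr2f1*, *Lhx2*, *Otx1*, *Emx2* and *Gsx2*), beside 32.0% of all genes, and 1 was higher in B (*Nr2f2*), beside 28.1%. The median difference of A minus B on the log2(FPKM + 1) scale, which understates changes of low genes, was 0.44 over the 8 genes and 0.03 over all genes tested. The median size of the difference without regard to sign was 0.47 over the 8 and 0.24 over all. Some marker lists of cell types moved with the replicate as well. The progenitor markers had a summed level of 21150 to 23205 FPKM in A and 10201 to 10994 FPKM in B, but without *Fabp7* the other 9 summed to 4350 to 4648 FPKM in A and 3681 to 5509 FPKM in B, which overlapped. Of the 10 markers 5 were higher in both A libraries and 5 overlapped, with a median log2 difference of 0.12, and *Fabp7* and *Hes5* (log2 differences of 1.56 and 1.14) met the rule for a difference given next. Of 8 neuron markers at 1 FPKM or more, 5 were higher in both A libraries and 3 overlapped, with a median log2 difference of 0.44, while their summed level overlapped at 229 to 257 FPKM in A and 199 to 251 FPKM in B. The mesenchymal markers were higher in B, with none of the 10 at 0. Their part in the levels of the 8 genes was not tested.

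A gene was counted as differing when its libraries did not overlap and the log2 difference was at least 1, which 6.20% of all genes tested met. None of the 8 genes met it. *Gsx2* was just under the limit at 0.99, and it passed when B2 was left out (1.31), in TPM (1.13), with a pseudocount of 0.1 (1.25) or when log2 values in place of FPKM were averaged over technical libraries (1.02). The next were *Otx1* at 0.57, *Nr2f1* at 0.55 and *Lhx2* at 0.52. *Nr2f2* was at -0.43, *Pax6* at 0.35, *Emx2* at 0.20 and *Dmrta2* at -0.05. For *Emx2* the size of the difference came mostly from B2, without which it was 0.03.

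**Figure D3:**
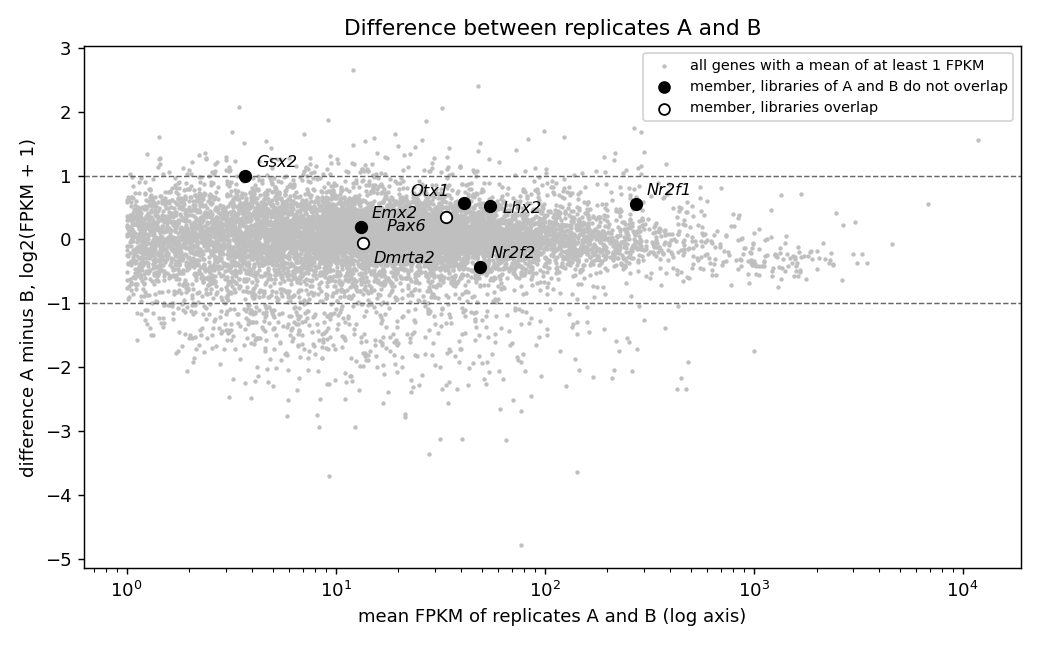
Difference of replicate A minus B on the log2(FPKM + 1) scale against the mean FPKM (logarithmic axis) for all 10481 genes averaging 1 FPKM or more (grey) and the 8 genes (filled where the libraries of A and B do not overlap). All 8 lie between the dashed lines at -1 and 1, with *Gsx2* at 0.99.

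The technical libraries set how finely such values can be read. Between A1 and A2 the median absolute log2 difference of the 8 genes was 0.05, below the 0.11 of all genes tested. Between B1 and B2 it was 0.43, against 0.22 for all genes. Some single genes lay much further apart inside B, such as *Ptgds* (8.18 FPKM in B1, 292 FPKM in B2) and *Foxc1* (29.4 FPKM in B1, 115 FPKM in B2). The members most apart inside B were *Pax6* (0.73, higher in B2), *Gsx2* (0.59, higher in B2), *Nr2f2* (0.49, higher in B2) and *Otx1* (0.48, higher in B2). *Emx2* (0.37), *Nr2f1* (0.20), *Lhx2* (0.16) and *Dmrta2* (0.08) were lower in B2 than in B1.

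Levels were also expressed relative to *Sox2*, which encodes an HMG-box factor that maintains neural stem cells, in the same library. This scale was chosen after the values had been seen. *Sox2* had 558 FPKM in A1, 592 FPKM in A2, 406 FPKM in B1 and 356 FPKM in B2. *Nr2f1* was at 0.585, 0.552, 0.585 and 0.581 of the *Sox2* level in A1, A2, B1 and B2, a range of 1.06 times where its FPKM had ranged over 1.58 times. *Lhx2* was at 0.115, 0.110, 0.117 and 0.119, a range of 1.08 times, with both B libraries slightly above both A libraries. *Otx1* was at 0.101, 0.0726, 0.0675 and 0.109, with A and B overlapping and nearly equal replicate means, but the technical libraries of each replicate lay far apart. In these 3 genes the log2 difference of A minus B was between -0.06 and -0.03 on this scale.

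The other 5 members had differences of larger size on this scale. *Nr2f2* relative to *Sox2* was at 0.0788, 0.0664, 0.115 and 0.185, so the B libraries were further above A than in FPKM. *Dmrta2*, so even in FPKM, was at 0.0234, 0.0228, 0.0349 and 0.0376, with B above A. *Emx2* likewise became higher in B, at 0.0252, 0.0242, 0.0343 and 0.0296. *Gsx2* was at 0.00918, 0.00909, 0.00372 and 0.00784 and stayed higher in A. *Pax6* overlapped between the replicates and ranged over 1.93 times. The result depends on the marker taken: over the 10 progenitor markers, the range of the *Nr2f1* ratio went from 1.06 times with *Sox2* up to 2.65 times. The direction between replicates also turned with the marker for *Emx2*, *Dmrta2* and *Gsx2*. Their A over B ratios went from 0.396 to 1.40, from 0.325 to 1.18 and from 0.803 to 3.22. For *Nr2f2* this ratio was 0.247 to 0.955, so B was higher with each marker.

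**Figure D4:**
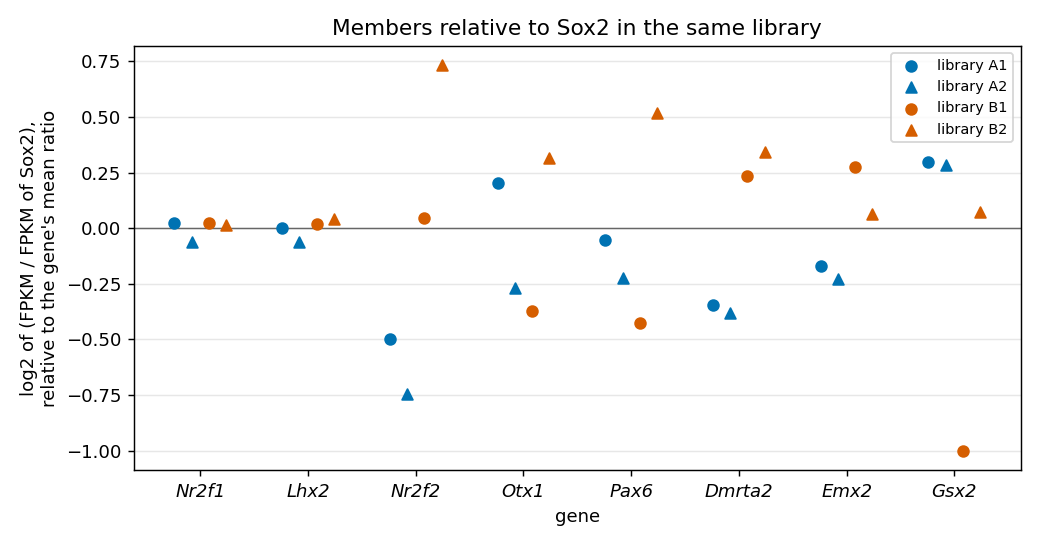
FPKM of each gene divided by the FPKM of *Sox2* in the same library, as log2 relative to the mean ratio of the gene over the 2 replicates. The 4 points of *Nr2f1* and of *Lhx2* lie close together, within 1.06 and 1.08 times, with those of *Lhx2* slightly higher in B, while *Nr2f2*, *Dmrta2* and *Emx2* are higher in B by more and *Gsx2* is higher in A.

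Other regional factors were read from lists drawn up beside the members. Of 20 other transcription factors of forebrain patterning with a row, 15 averaged 1 FPKM or more. The highest of them were *Meis2*, a homeobox gene of the ventral forebrain, at 80.2 ± 13.6 FPKM, *Sall1*, a zinc finger gene, at 47.6 ± 24.3 FPKM and *Six3*, a homeobox gene of the anterior forebrain and eye, at 45.8 ± 9.46 FPKM (SD, n = 2). All 3 were thus above *Dmrta2*, *Emx2* and *Gsx2* and below *Nr2f1* in their means. *Hesx1*, a gene of the early forebrain and pituitary, was listed at 0 in all libraries.

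Of these 15 genes, 10 were higher in both A libraries and 3 in both B libraries, beside 32.0% and 28.1% of all genes tested, and 2 overlapped, with a median log2 difference of 0.42. The rule for a difference, which 6.20% of all genes tested met, was met by 3: *Sall1* (1.07) and *Otx2* (1.36) were higher in A, and *Tfap2c* (-1.67) was higher in B. *Otx2* rests on its 0 in B2. Without B2 there were 4, beside 5.48% of all genes tested, since *Otx2* (0.44) no longer passed while *Etv4* (-1.30) and *Etv5* (-1.39), targets of FGF signalling that were higher in B1, did.

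Ventral telencephalic factors were set beside the members because the cells came from cortex. Of 13 with a row, 9 had at least 1 FPKM, with a median over the 13 of 21.7 FPKM. The highest of them were *Nkx2-1*, which marks the medial ganglionic eminence, at 80.5 ± 41.1 FPKM, *Dlx1* at 72.7 ± 46.9 FPKM and *Olig2*, a gene of ventral and oligodendrocyte progenitors, at 72.3 ± 6.00 FPKM (SD, n = 2). *Nkx2-1* was at 4.10 to 8.30 times *Emx2* over the 4 libraries, and *Gsx1* at 4.26 to 5.64 times *Emx2*. *Dlx1* was 1.05 to 2.86 times *Pax6*. These pairs were chosen after the values were seen, *Emx2* is among the lowest members, and all 3 ventral genes were below *Nr2f1* in their means. *Vax1* and *Ebf1*, also on the ventral list, were below *Emx2* at 4.96 and 4.14 FPKM. *Lhx6* and *Lhx8*, genes of neurons leaving the medial ganglionic eminence, stayed at 0.487 and 0.113 FPKM.

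Of the 9 ventral genes at 1 FPKM or more, 7 were higher in both A libraries and 1 in both B libraries, beside 32.0% and 28.1% of all genes tested, and 1 overlapped, a median log2 difference of 0.52. The rule for a difference was met by 3, beside 6.20% of all genes. *Dlx1* (1.40) and *Nkx2-1* (1.07) differed and were higher in A, and *Ebf1* (-1.15) differed and was higher in B. Without B2, *Nkx2-1* (0.93) no longer passed. *Gsx2* had the direction of these 7 genes, among them *Dlx1*, *Dlx2*, *Nkx2-1* and *Gsx1* (0.46), and not that of *Ebf1*, while *Olig2* overlapped. This direction was not particular to the ventral list. It was also that of 10 of the 15 other forebrain factors and of *Nr2f1*, *Lhx2*, *Otx1* and *Emx2*.

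Factors of diencephalon, midbrain, hindbrain and spinal cord were mostly below 1 FPKM. Of 20 with a row, 7 reached 1 FPKM and the median was 0.212 FPKM. The highest were *Tcf7l2*, a Wnt effector of the thalamus, at 19.1 FPKM, *En2*, a midbrain and cerebellar gene, at 12.4 FPKM and *Irx5* at 7.66 FPKM. *Tcf7l2* was thus above the means of *Dmrta2*, *Emx2* and *Gsx2*, and *En2* was close to *Emx2*. *Hoxc4* was listed at 0 in all libraries. Of the 7 genes, 2 were higher in A and 3 in B, beside 32.0% and 28.1% of all genes tested, and 2 overlapped. The rule for a difference was met by 0 of them (6.20% of all genes), and without B2 by *Gbx2* (1.17) and *Irx1* (-1.13), beside 5.48% of all genes.

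**Figure D5:**
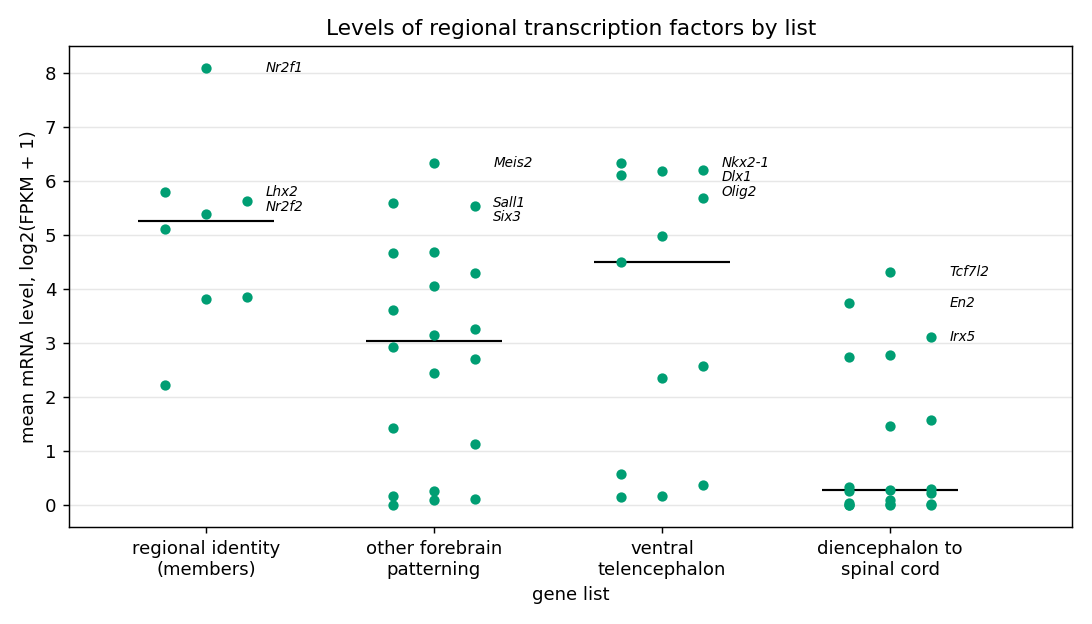
Mean mRNA level on the log2(FPKM + 1) scale for the genes with a row in each list, 1 point per gene, with a bar at the median and the 3 highest genes named. The median lies highest for the 8 members, with the ventral list above the other forebrain factors and the caudal list near 0.

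For each member the genes most like it were sought among all genes at 1 FPKM or more, by the Euclidean distance of log2(FPKM + 1) over the 4 libraries, a measure of level and course together. *Dmrta2* and *Emx2* had many near neighbours, with 96 and 50 genes inside a distance of 0.25, led by *Zc3h3* and *Peli1* for *Dmrta2* and by *Prmt7* and *Phf7* for *Emx2*. *Lhx2* had 10 (led by *Ints4*), *Nr2f2* had 6 (*Numbl* and *Pdlim7*), *Pax6* had 4 (*Fgfr2* and *Adgrl1*) and *Nr2f1* had 3 (*Snrpd1* and *Ndufc2*). No gene came that near to *Otx1*, whose closest were *Acsl3* at 0.33 and *Twf1* at 0.34, or to *Gsx2*, whose closest were *Zim1* at 0.33 and *Rasa2* at 0.37. With 4 libraries and 10481 genes such neighbours are a description of course and level.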

How the data were processed

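PolyA-selected RNA-seq of 2 biological replicates, A and B, with 2 technical libraries each, was used, grouped by the sample labels. Column names elsewhere in the study admit another pairing of the libraries (B1 with A1, B2 with A2), which was not used. The authors aligned reads to rn6 with STAR and deposited 1 table per library in the layout of StringTie, and tool versions are not given in the sources used here. FPKM and TPM were computed by the authors and used as deposited. Coverage, as deposited, is read depth averaged along a gene, with no scaling to library size. The authors name Rsubread and DESeq2 for FPKM in their methods, and no count test was run here. Start-seq (2 samples) was not analysed here, and some genes of the lists and of the nearest genes are not reported here.

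FPKM was summed over rows of a gene name, averaged over technical libraries and then over replicates. To differ between the replicates, a gene had to average 1 FPKM or more, show a log2(FPKM + 1) difference of the replicate means of 1 or more, and have no overlap of libraries. The script was tested on simulated libraries with large changes, which says nothing about changes near the limit. The members and gene lists were chosen with earlier results of these data known. Named are the members, their paralogs, the 3 highest genes of a list, genes of a list that differed or were at 0 throughout, the 2 nearest genes of each member, and further genes chosen after their values were seen. Endothelial and microglial markers are given as counts. The tables give depth per gene as coverage and not as read counts, so no counting interval is given. Python 3.11.15, pandas 2.3.3, numpy 2.4.6 and matplotlib 3.10.9 were used.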

Additional observations from a re-analysis of the deposited data

Results flagged for a closer look

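Values over the 4 libraries were examined for 1 library far from the rest, measured as the gap to the next library divided by the whole range. Of 15 values 2 stood out, where chance gives about 1 in 20 for independent samples, and technical pairs are not independent. *Pax6* was at 22.1 FPKM in B1, with a gap of 0.867 of the range. *Emx2* was at 10.5 FPKM in B2, with a gap of 0.894 of the range. The cause was not tested for either.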

How the results depend on the processing

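All 8 members kept a mean of at least 1 FPKM under each alternative computed with that limit or a lower one, and 7 reached 10 FPKM. The number that differed between A and B was 0, and also 0 after scaling the libraries to their median ratio or with no filter on low values. It was 1, in each case *Gsx2*, in TPM (6.89% of all genes tested), with a pseudocount of 0.1 (8.59%), with a difference of at least 0.58 (16.5%), without B2 (5.48%), and with log2 values averaged over technical libraries (6.15%), an alternative chosen after seeing the data. The cause was not tested. The genes of the tables that differed numbered 650, and 1725 at a difference of at least 0.58. Members whose libraries did not overlap numbered 6, with 5 in TPM (62.2% of all genes tested), 7 after scaling (60.4%) and 8 without B2 (84.1%), where B is 1 library and non-overlap is easier to reach. The sign of the difference was that of the reported value in 40 of 40 alternatives other than division by *Sox2*. That division was also chosen after seeing the data, and under it *Nr2f1*, *Lhx2*, *Otx1*, *Pax6* and *Emx2* changed sign (-0.03 for *Otx1* to -0.37 for *Emx2*). *Nr2f2* kept its sign and went to -1.05, a size above 1, with its libraries apart. *Dmrta2* went to -0.65 and *Gsx2* to 0.66. Members that differed were not counted on that scale. *Nr2f1* over *Nr2f2* was 4.11 to 7.87 times with 1 replicate or B2 left out. Mean levels cannot move by more than 1 SD when 1 of 2 replicates is left out, so that tests nothing. The ratio of *Emx2* to *Emx1* was planned and not run because *Emx1* was not analysed here. No paired analysis was possible because only 1 condition was compared. Coverage was lowest for *Gsx2* in B2.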

Other observations

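Markers of more mature cells were read beside the members. Of 10 neuron markers with a row, 8 had at least 1 FPKM, led by *Tubb3* at 118 ± 9.88 FPKM, *Gap43* at 66.5 ± 4.0 FPKM and *Stmn2* at 21.4 ± 1.46 FPKM (SD, n = 2), while *Tbr1* and *Neurod1*, of cortical excitatory neurons, were at 0.259 and 0.292 FPKM. The 4 astrocyte markers were all above 10 FPKM. *Gfap* had 571 ± 127 FPKM, *S100b* had 280 ± 147 FPKM and *Aqp4* had 80.8 ± 7.15 FPKM (SD, n = 2). *Gfap* was thus above every member in its mean, and *S100b* was close to *Nr2f1*. Between A and B the astrocyte markers did not move together. *S100b* differed and was higher in A with a log2 difference of 1.12 (0.92 without B2). *Gfap* (-0.46), *Aqp4* (-0.18) and *Aldh1l1* (-0.18) had higher means in B, but the libraries of *Gfap* and *Aldh1l1* overlapped. For *Gfap* the higher mean came from B2 (904 FPKM), since B1 (419 FPKM) was below A1 (502 FPKM) and A2 (460 FPKM). Of 6 oligodendrocyte lineage markers 4 reached 1 FPKM, and *Pdgfra*, which also marks mesenchymal cells, was at 9.50 FPKM in A1, 9.09 FPKM in A2, 59.5 FPKM in B1 and 59.4 FPKM in B2. *Sox10*, a defining gene of that lineage, was at 0.258 FPKM. *Olig2*, on the ventral list, was at 66.8, 69.3, 103 and 49.7 FPKM in A1, A2, B1 and B2, with A and B overlapping.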
